A study of Mus musculus with 3 samples.

Results

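The genes described here encode calmodulin, the calcium/calmodulin-dependent kinases, casein and tau tubulin kinases, and the NEK, DYRK, CLK, HIPK and STK kinases. They were taken as the genes whose symbol in the array's annotation starts with Nek, Stk or Clk and a digit, or with Camk, Csnk, Ttbk, Dyrk, Hipk or Calml, or is Calm and a digit. Stk31 was left out, and only probe sets naming 1 gene were used. This gave 71 genes, measured by 74 probe sets, of 19938 named genes. Levels were measured in 1 group of 3 replicate arrays of testis cells labelled as spermatids, from wild-type male BALB/c mice that were 30 days old. No second group was given, and the labels do not say that the replicates came from separate animals, so p-values measure only the spread between these arrays. The labels describe a filtered suspension of cells from testis tubules and no sorting step.

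Calmodulin is a small calcium-binding protein that has no catalytic activity and acts by binding enzymes, among them the CaM kinases and the phosphatase calcineurin. Spermatids, the haploid cells that turn into sperm, transcribe many kinase genes that take part in condensing the nucleus, building the acrosome and assembling the flagellum. In the mouse, loss of the casein kinase 2 subunit gene Csnk2a2, of Stk33 or of Hipk4 is known to impair sperm shape or male fertility. NEK kinases and Ttbk2 are best known for work at centrosomes and cilia, and CLK kinases phosphorylate the SR proteins of pre-mRNA splicing.

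Levels are Robust Multichip Average (RMA) values in log2 units, each given with its SD over the 3 arrays. Many genes had exactly the same value on all arrays, and for these the value is given without an SD, which would be 0 and would understate the error. A gene was called above background when its mean exceeded 7.98, the 95th percentile of 211 vomeronasal receptor and hair keratin associated protein genes, in a one-sided limma test at an adjusted p of 0.05 (Benjamini-Hochberg over all named genes). The background genes had a median of 4.77, so a gene not called is not shown to be absent. The level of a probe set also depends on how well its probes bind, so the order of genes in what follows describes the arrays and was not tested.

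The pairs of arrays correlated with Pearson's r between 0.992 and 0.995 over 35556 probe sets, which are not independent replicates. Markers of the labelled cells were called in 8 of 8 elongating and 8 of 8 round spermatid genes. Genes listed as markers of other testis cells were called as well. They were 7 of 7 pachytene spermatocyte, 3 of 8 spermatogonial, 4 of 7 measured Sertoli and 5 of 5 measured Leydig genes. A further 4 of 6 peritubular, endothelial and stromal and 3 of 5 measured blood and immune genes were called. The endothelial genes Kdr and Pecam1 were not called, at 6.63 and 6.74. Ptprc and Adgre1 of the blood and immune list were not called either, at 6.67 and 7.42. Whether spermatids also held transcripts of the spermatocyte genes was not tested. The spermatogonial share, 37.5%, was near the 36.6% of all named genes that were called. The lowest called Sertoli marker lay 0.02 above the background level, and the lowest called blood and immune marker 0.18 above it. None of 8 genes of other tissues was called by limma's test or had an unadjusted p under 0.05, and their highest mean was 7.87. The kinase levels may thus come from RNA of several cell types, and the part of each type in a level was not tested. In such a mixture, fewer cells of a type and less RNA per cell cannot be told apart.

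Of the 71 genes, 44 (62.0%) were called above background, against 36.6% of all named genes. Their median level was 8.86, against 7.45 for all named genes, and 20 of them (28.2%) had a mean of 10 or more, against 12.0% of all named genes. The share moved with the rule used to call a gene, for these genes and for all named genes alike. With olfactory receptor genes as the background, 53 of the 71 were called against 55.0% of all named genes, and with 4 receptor pseudogenes left out of the background genes 47 were, against 43.6%. With the 99th percentile as the background level 30 were called against 19.3%, and with probe sets naming several genes included 39 were, against 30.7%. Asking instead that each array exceed the level gave 45, against 37.6%. Casein kinase 2, DYRK, CLK and HIPK genes, in groups of 3 to 5, were called without exception by limma's test at the level of 7.98. Of the CaM kinases and their inhibitors, 3 of 12 genes (25%) were called. The NEK share, 4 of 10 genes (40%), was near the 36.6% of all named genes. The 27 genes not called included calmodulin-like genes, brain CaM kinases and the Stk32 kinases.

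**Figure D1:**
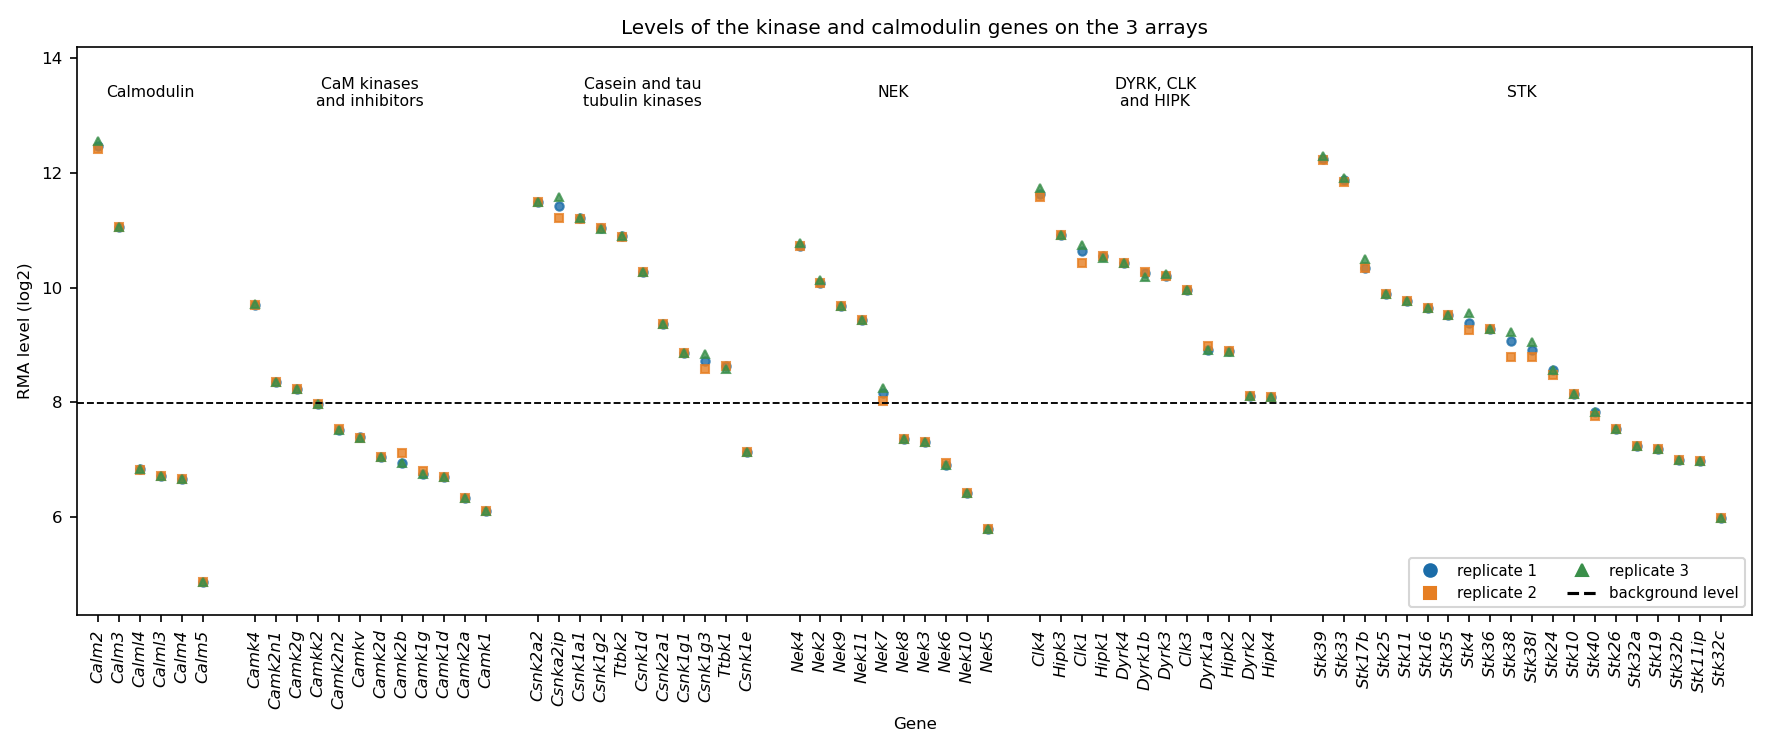
RMA level (log2, vertical axis) of each of the 71 genes on the 3 arrays (symbols), grouped by family, with the background level of 7.98 as a dashed line. The 3 symbols of a gene mostly coincide, all CLK, DYRK and HIPK genes lie above the line, and most CaM kinase genes lie below it.

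**Figure D2:**
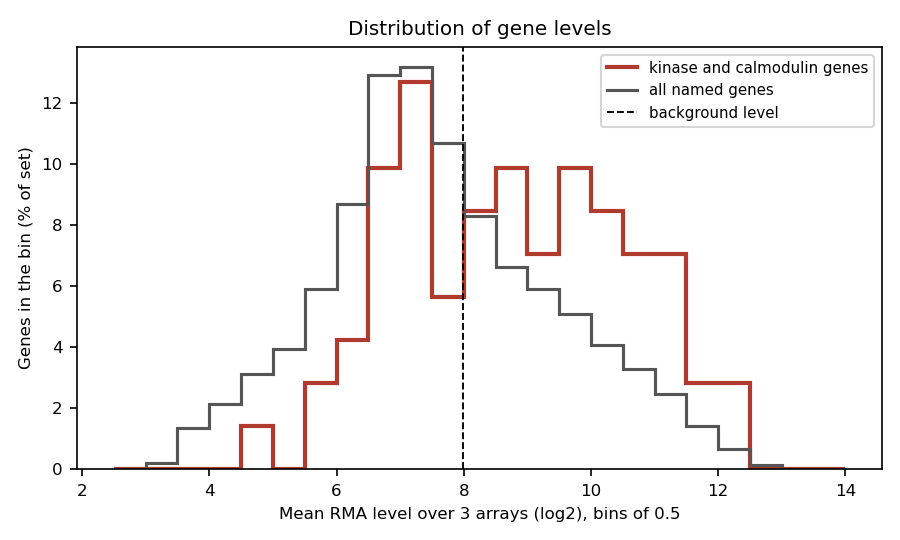
Share of genes (%, vertical axis) in bins of 0.5 of mean RMA level (log2, horizontal axis) for the 71 kinase and calmodulin genes and for all 19938 named genes. The kinase and calmodulin genes hold a larger share of the bins above the background level of 7.98, with a median of 8.86 against 7.45 for all named genes.

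Calmodulin itself was among the genes with the highest levels on the arrays. Calm2, which in mice encodes the same calmodulin protein as Calm3, was at 12.47, 12.43 and 12.57 on replicates 1, 2 and 3, a mean of 12.49 ± 0.07 (adjusted p = 6.02e-05 by limma's one-sided test) that lay at percentile 99.9 of all named genes. Calm3 was at 11.06 on all 3 arrays. All 6 of these values were far above the background level. The related genes were not called. Calm4 and Calm5, calmodulin-like genes known from skin, were at 6.67 and 4.86 on every array, and Calml3 was at 6.72 on every array. Calml4, known as a light chain of brush border myosin, averaged 6.83 ± 0.0056.

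The Calm2 value joins 2 probe sets that differed by more than 1. One was at 13.04, 13.04 and 13.11 on replicates 1, 2 and 3, and the other at 11.90, 11.82 and 12.03. The first stood among probe sets of genes on chromosome 17, where Calm2 lies, with 17 of its 20 nearest named neighbours in identifier order on that chromosome. For the second, 20 of 20 neighbours named genes on chromosome X. Whether the second reads another copy of the sequence was not tested, and the level of Calm2 is therefore uncertain within the range of the 2 probe sets, both of which lay above the background level.

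Among the CaM kinases only Camk4 and Camk2g were called above background by limma's test at the level of 7.98. Camk4, a kinase of spermatids known to act on CREB family factors and reported to phosphorylate protamine 2, was at 9.71, 9.71 and 9.72 (mean 9.71 ± 0.0083, adjusted p = 5.02e-06 by limma's one-sided test). Its 3 values spanned 0.01 and lay well above 7.98. The Camk4 gene also gives rise to calspermin, a calmodulin-binding protein of the testis, and the probe set used here does not separate the products. Camkk2, the kinase that activates CaM kinases I and IV, was at 7.97 on every array, just under the background level, and was called when the background was computed without 4 receptor pseudogenes or without replicate 2. Camk1, Camk1d and Camk1g, the genes of CaM kinase I isoforms, were not called. Camk1 was at 6.10 and Camk1d at 6.71 on all arrays, and Camk1g was at 6.75, 6.81 and 6.75.

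Of the 4 CaM kinase II subunits, Camk2g was at 8.24 on all arrays and was called. Camk2d was at 7.05 on every array and was not called. The subunits best known from brain were not called either, with Camk2b at 6.95, 7.13 and 6.95 and Camk2a at 6.34 on every array. Camk2n1, an inhibitor of CaM kinase II, was called at 8.35 on all arrays, and Camk2n2, its relative, was not called at 7.51, 7.53 and 7.51. Camkv, a kinase-like protein gene of brain, was at 7.40, 7.37 and 7.37 by the probe set that names it alone. A further 32 probe sets named Camkv together with the ribosomal protein gene Rpl21, and most of them also named Cep170. Their levels ran from 10.40 to 12.05, and with these added the Camkv value lay 3.46 above the background level of that setting. The level of Camkv cannot be told apart from that of the other genes named by those probe sets.

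Of the casein kinase genes and the gene of a casein kinase 2 binding protein, all but 1 of 9 were called. Of all named genes, 36.6% were. Csnk2a2, the catalytic subunit of casein kinase 2 that sperm head shaping in the mouse depends on, was at 11.49 on all 3 arrays. Csnka2ip, named for its product's binding to that subunit, was at 11.42, 11.22 and 11.58 (mean 11.41 ± 0.18, adjusted p = 6.26e-04 by limma's one-sided test), with replicate 2 lowest and replicate 3 highest. Csnk2a1, the other catalytic subunit, was at 9.37 on all arrays as the median of 2 probe sets at 9.13 and 9.61. The probe set at 9.61 stood among genes of chromosome 1 in identifier order (19 of 20 neighbours), while Csnk2a1 lies on chromosome 2, and whether it reads another copy was not tested.

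Of the casein kinase 1 genes, Csnk1a1, a kinase of beta-catenin, was at 11.21 on each array (mean 11.21 ± 0.0022). Csnk1g2, a membrane-anchored isoform, was at 11.05, 11.05 and 11.02 (mean 11.04 ± 0.01). Csnk1d, one of the isoforms that phosphorylate circadian clock proteins, was at 10.27 on all arrays. Csnk1e, the isoform closest to Csnk1d, was at 7.13 on all arrays and was the casein kinase gene that was not called. The remaining membrane-anchored isoforms were called at lower levels, Csnk1g1 at 8.86 on every array and Csnk1g3 at 8.73, 8.58 and 8.85 (adjusted p = 0.00883 by limma's one-sided test). The call of Csnk1g3 was lost whichever replicate was left out, with adjusted p from 0.0530 to 0.0984 by the same test.

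Both tau tubulin kinase genes were called, against 36.6% of all named genes. Ttbk2, which starts cilium assembly at the mother centriole, was at 10.90, 10.89 and 10.90 (mean 10.89 ± 0.0041). Ttbk1, known from brain, was at 8.62 ± 0.03.

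Of the 10 NEK genes, 4 (40%) were called, a share near the 36.6% of all named genes. Nek4 was at 10.73, 10.73 and 10.78 (mean 10.75 ± 0.02), and Nek2, a kinase of centrosome separation that is also present in meiotic germ cells, was at 10.09, 10.09 and 10.14 (mean 10.10 ± 0.03). Nek9, which activates Nek6 and Nek7 in mitosis, was called at 9.69, and Nek11, linked to the DNA damage checkpoint, at 9.44, each on all arrays. Nek6 at 6.92 ± 0.02 was not called. Nek7 was at 8.17, 8.02 and 8.26, above the background level on every array, yet its mean of 8.15 ± 0.12 did not pass (adjusted p = 0.145 by limma's one-sided test). Stk10, also at 8.15 but tied on the 3 arrays, was called, so these 2 genes differed in spread and not in level. Nek8, a ciliary kinase known from kidney cysts, and Nek3 were at 7.36 and 7.31 on every array. The lowest NEK genes were Nek10 at 6.42 and Nek5 at 5.80, tied on the 3 arrays. Nek1 was not analysed here.

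All 5 DYRK genes were called, against 36.6% of all named genes. Dyrk4, known for its expression in testis, was at 10.42 on all 3 arrays. Dyrk1b was at 10.25, 10.27 and 10.18 (mean 10.24 ± 0.05), and Dyrk3, a kinase that dissolves stress granules, at 10.20, 10.20 and 10.24 (mean 10.21 ± 0.03). Dyrk2 was at 8.10 on all arrays, close to the background level. Dyrk1a was at 8.91, 8.98 and 8.91 (mean 8.93 ± 0.04) over 2 probe sets that disagreed, with 1 at 10.07 on every array and the other at 7.75, 7.88 and 7.75, below the background level. Both stood among genes of chromosome 16, where Dyrk1a lies.

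The CLK genes were called at high levels. Clk4 was at 11.64, 11.59 and 11.74 (mean 11.66 ± 0.08), Clk1 at 10.65, 10.43 and 10.75 (mean 10.61 ± 0.16) and Clk3 at 9.96 on all arrays. The probe set for Clk2 also names another gene, so Clk2 was not among the members, and that probe set was at 9.36.

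Among the HIPK genes, Hipk3 was at 10.91, 10.92 and 10.91 (mean 10.92 ± 0.0021) and Hipk1 at 10.56, 10.56 and 10.52 (mean 10.54 ± 0.02). Hipk2 was at 8.89 ± 0.0074. Hipk4, the member known for expression in spermatids, was at 8.09 on all arrays. This lay 0.11 above the background level, and Hipk4 was not called with the 99th percentile level or with probe sets of several genes added. Its position near the level describes this probe set and does not give its transcript number.

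The 20 STK genes do not form a single kinase family, and 13 of them (65%) were called, against 36.6% of all named genes. Stk39, the SPAK kinase that regulates chloride cotransporters, was at 12.25, 12.22 and 12.30 (mean 12.26 ± 0.04, adjusted p = 2.15e-05 by limma's one-sided test). Stk33, needed in the mouse for a normal sperm tail, was at 11.88, 11.85 and 11.91 (mean 11.88 ± 0.03, adjusted p = 1.39e-05 by the same test). Stk39 lay at percentile 99.6 of all named genes. Stk36, the Fused kinase needed for the central pair of motile cilia, was at 9.29 on each array (mean 9.29 ± 0.0011). Stk35, a nuclear kinase, was called at 9.52 on all arrays and the Golgi kinase gene Stk16 at 9.65 on all arrays. Stk17b, a kinase of the death-associated family, was at 10.35, 10.35 and 10.50.

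Stk11, the gene of the tumour suppressor LKB1 whose short isoform is known from spermiogenesis in mice, was at 9.78, 9.77 and 9.77 (mean 9.77 ± 0.0029). Its interactor gene Stk11ip was at 6.99 on every array and was not called. Among the STE20-like kinases, Stk25 was at 9.89 on all arrays, Stk24 at 8.57, 8.47 and 8.57, and Stk10 at 8.15 on all arrays. Stk4, the MST1 kinase of the Hippo pathway, was at 9.38, 9.26 and 9.57 (mean 9.40 ± 0.16). Stk26, on chromosome X and the only member there, was at 7.54 on all arrays and was not called. The NDR kinases Stk38 and Stk38l were called at 9.08, 8.80 and 9.23 and at 8.91, 8.80 and 9.05. Their calls, and those of Stk4 and Stk24, were each lost without at least 1 replicate. Without replicate 1 Stk4, Stk38 and Stk38l lost the call, without replicate 2 Stk38l did, and without replicate 3 Stk24, Stk38 and Stk38l did.

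Stk40 at 7.83, 7.77 and 7.83 and Stk19 at 7.18 on all arrays were not called. None of the 3 Stk32 genes, known as YANK kinases, was called by limma's adjusted test or at an unadjusted p under 0.05. They were at 7.23 for Stk32a, 7.00 for Stk32b and 5.98 for Stk32c, tied on the 3 arrays, and with the olfactory receptor background Stk32a was called.

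The arrays differed little for most of these genes, and the largest differences ran the same way. Of the 71 genes, 36 (50.7%) were tied on all arrays, against 46.0% of all named genes. Among the 35 others, 23 had equal values on 2 of the 3 arrays, and their SDs may understate the error as well. The median SD of the 35 was 0.03, against 0.05 for all untied named genes. A range over 0.2 was seen in 7 of the 71 genes and in 2398 of 19938 named genes. The 7 members were Stk38, Csnka2ip, Clk1, Stk4, Csnk1g3, Stk38l and Nek7. In each of these 7 genes replicate 3 was highest and replicate 2 lowest, with differences between them from 0.23 to 0.44. How often other named genes with such a range show this order was not tested. This order was seen in 10 of 27 untied genes called above background, or 37.0%, against 41.4% of all called and untied genes. It was seen in 11 of all 35 untied members, or 31.4%, against 20.9% of all untied named genes. Genes with equal values on 2 arrays cannot show this order but are counted in these shares, which are therefore low. They were 16 of the 27 and 23 of the 35 members. Among all named genes they were 2243 of the 4451 called and untied genes and 6445 of the 10765 untied genes. The replicates are 1 group, and the order describes the arrays.

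**Figure D3:**
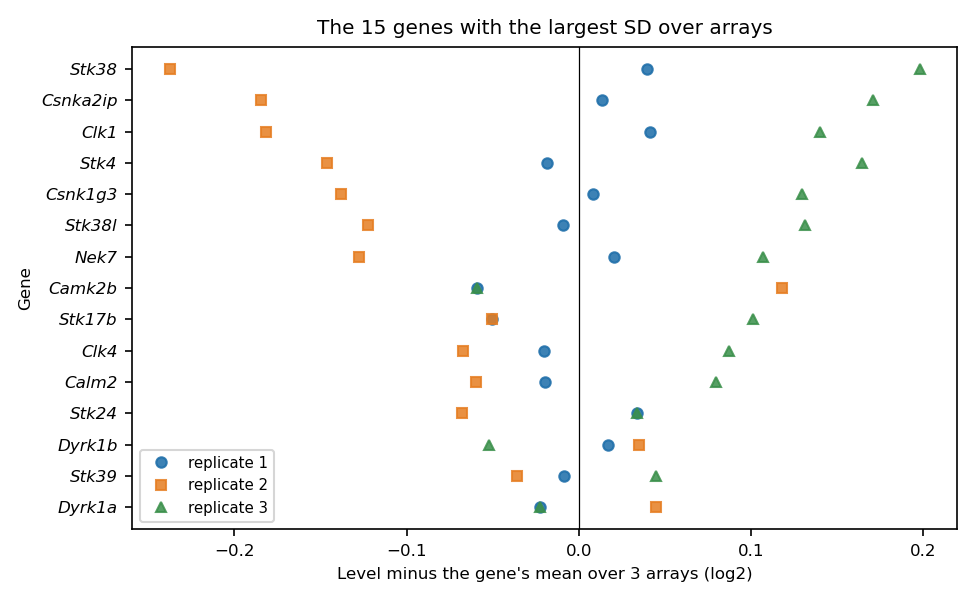
Level on each array minus the gene's mean over the 3 arrays (log2, horizontal axis) for the 15 genes with the largest SD, ordered from the largest SD at the top. Replicate 3 lies on the right and replicate 2 on the left in each of the top 7 genes, with Stk38 at a difference of 0.44.

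The partner genes bind, regulate or receive signals from calmodulin or these kinases, or encode related kinases. Of the 43 measured, 28 (65.1%) were called, against 36.6% of all named genes. The list was chosen with earlier results of these data known, so this share only describes the genes listed. The median level of the 43 was 9.03, against 7.45 for all named genes. The calcineurin genes Ppp3cc and Ppp3r2, which encode the sperm form of this calmodulin-dependent phosphatase, were at 12.30, 12.20 and 12.40 and at 10.18, 10.14 and 10.51. The somatic catalytic subunits Ppp3ca and Ppp3cb were called too, at 11.33 ± 0.07 and 10.32 ± 0.07. Ppp3r1, the somatic regulatory subunit, was at 8.02, 7.85 and 8.11 and did not pass. Values of its arrays fell on both sides of the background level.

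Of 14 calmodulin binders and calmodulin-regulated enzymes, 5 (35.7%) were called, a share near the 36.6% of all named genes. Phkg2, the catalytic subunit of phosphorylase kinase known from liver and testis, was at 11.76 on all arrays. Its muscle counterpart Phkg1 was at 5.47 on all arrays. The calmodulin-stimulated phosphodiesterase genes Pde1c and Pde1a were at 10.61 on all arrays and at 10.12 ± 0.04, and Pde1b was not called at 7.26 ± 0.04. The other genes of this group that were not called were the myosin light chain kinases Mylk (7.97), Mylk2 (5.84) and Mylk3 (7.51), the subunit Phka1 (7.46), and the calmodulin-binding peptides Nrgn (7.60 ± 0.06), Pcp4 (6.37) and Pcp4l1 (7.54 ± 0.01). Mylk lay 0.02 below the background level.

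The CREB family genes, whose products are phosphorylated by CaM kinases, were all 3 called, with Crem, the activator of haploid germ cell genes, at 10.01, 9.96 and 10.03. Srpk1 and Srpk2, which phosphorylate SR proteins as the CLKs do, were at 11.82 ± 0.05 and 11.13 ± 0.01, and Srpk3 was at 6.39 ± 0.01 and not called. All 4 genes of the LKB1 complex were called, against 36.6% of all named genes, with means from 8.12 to 9.88. In the Hippo pathway 6 of 7 genes were called, with the scaffold gene Sav1 at 10.44 on all arrays and Lats2, at 8.03 ± 0.04, not passing. Upstream of SPAK, Wnk3 and Wnk1 were at 10.52 and 10.43 on all arrays, while Wnk2 (6.72 ± 0.02), Wnk4 (7.61) and the SPAK relative Oxsr1 (7.80) were not called. Gsk3b was at 10.75 ± 0.02, and both GSK3 genes were called.

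**Figure D4:**
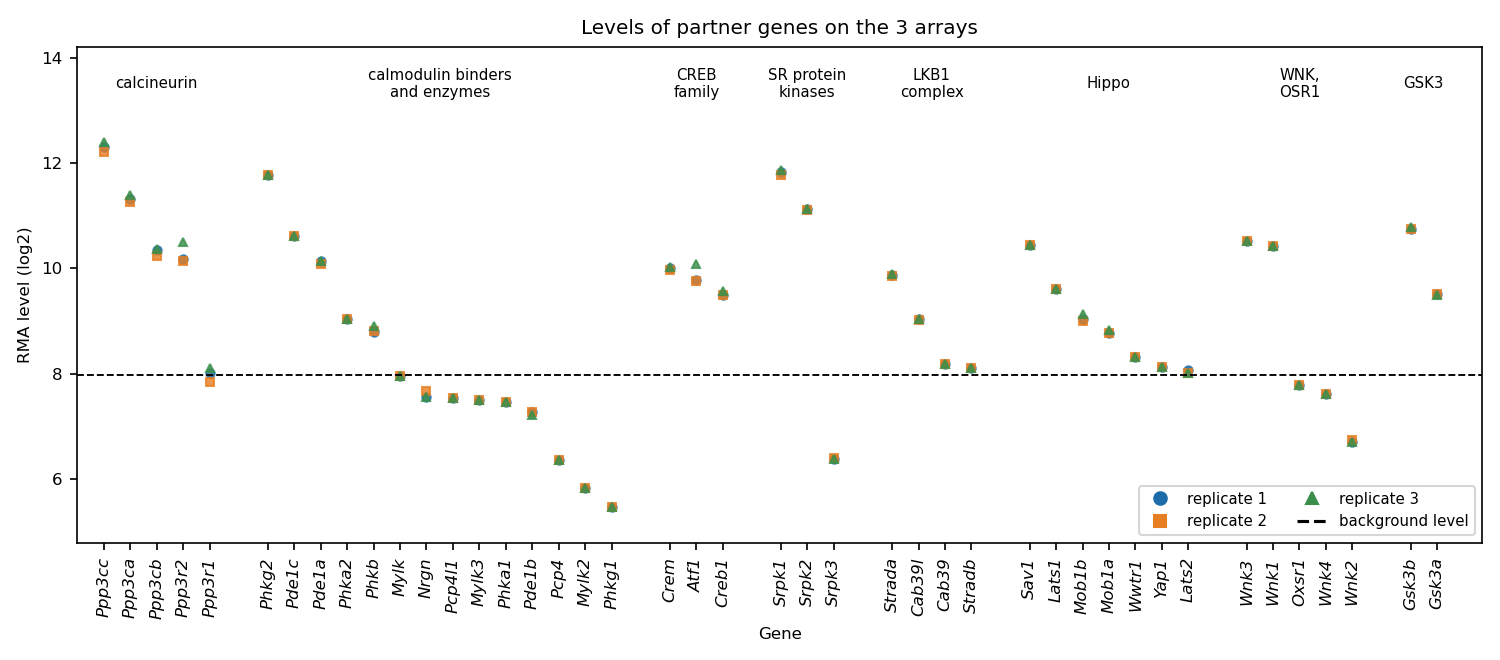
RMA level (log2, vertical axis) of 43 partner genes on the 3 arrays (symbols), grouped by pathway, with the background level of 7.98 as a dashed line. Ppp3cc at 12.30, Srpk1 at 11.82 and Phkg2 at 11.76 stand highest in their groups, and 9 of 14 calmodulin binders and enzymes were not called.

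Promoter sequences from RefSeq, reaching from 250 bases before to 50 bases after an annotated start on assembly GRCm38.p6, were matched to 57 of the 71 genes by gene identifier, which gave 70 promoters because some genes have several starts. The promoters were searched on both strands for TGACGTCA, the palindromic cyclic AMP response element bound by CREB and CREM, for TGACG, which TGACGTCA contains, for TATAAA, for CCAAT and for CAGTTG. TGACGTCA was found in 3 of 70 member promoters (4.29%), against 1.79% of 32851 promoters of all genes, and TGACG in 27.1% against 20.8%. TATAAA was found in 5.71% against 13.6%, CCAAT in 32.9% against 37.4% and CAGTTG in 11.4% against 13.7%. The promoters of all genes belong to 27025 genes and were not limited to the named genes of the array. Median GC content was 63.3% in member promoters against 52.7% in those of all genes, and the shares were not adjusted for it. The genes with TGACGTCA were Csnk1g2, Clk4 and Stk38l, all called above background, as were 34 of the 57 genes with a promoter. Csnk1g2 had another promoter without the element, and the call of Stk38l was lost whichever replicate was left out. Whether the element goes with the calls was not tested. A match is a description of the sequence and does not show binding.

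In these 3 promoters the element started 46 bases upstream of the annotated start in Csnk1g2, 65 bases upstream in Clk4 and 64 bases upstream in Stk38l. They are shown for the place of the element, which is in capitals, and were chosen after their values were seen. The Csnk1g2 promoter lies at chr10:80629406-80629705 on the plus strand, that of Clk4 at chr11:51262864-51263163 on the plus strand and that of Stk38l at chr6:146724680-146724979 on the plus strand of GRCm38.p6.
Csnk1g2: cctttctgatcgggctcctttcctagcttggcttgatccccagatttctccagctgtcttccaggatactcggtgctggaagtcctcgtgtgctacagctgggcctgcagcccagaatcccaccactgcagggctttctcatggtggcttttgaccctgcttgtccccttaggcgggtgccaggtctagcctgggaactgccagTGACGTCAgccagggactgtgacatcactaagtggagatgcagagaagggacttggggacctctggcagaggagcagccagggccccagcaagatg
Clk4: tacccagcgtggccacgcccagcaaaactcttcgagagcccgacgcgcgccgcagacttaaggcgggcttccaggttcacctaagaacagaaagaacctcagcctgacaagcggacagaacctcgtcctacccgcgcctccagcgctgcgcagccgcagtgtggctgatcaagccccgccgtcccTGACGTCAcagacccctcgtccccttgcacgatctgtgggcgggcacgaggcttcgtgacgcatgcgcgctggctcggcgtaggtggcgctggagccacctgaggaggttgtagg
Stk38l: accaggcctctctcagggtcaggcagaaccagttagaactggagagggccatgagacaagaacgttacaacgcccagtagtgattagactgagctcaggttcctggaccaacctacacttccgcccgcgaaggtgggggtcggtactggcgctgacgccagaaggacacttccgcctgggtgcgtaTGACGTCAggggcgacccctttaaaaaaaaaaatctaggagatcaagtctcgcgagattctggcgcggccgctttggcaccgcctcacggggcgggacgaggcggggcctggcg

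The member promoters were richer in CpG than those of all genes, with a median ratio of observed to expected CpG of 0.788 against 0.384. The ratio was under 0.6 in 7 of 41 promoters of called members (17.1%), in 10 of 29 promoters of members not called (34.5%) and in 64.2% of all promoters. Of 13 promoters of 11 members listed as known from testis, all of them called, 4 (30.8%) had a ratio under 0.6. It was 0.094 for Csnka2ip, 0.177 for Hipk4, 0.194 for the Csnk1g2 promoter shown above and 0.263 for Dyrk4. The other called members with such a promoter were Hipk2 at 0.054, Dyrk1a at 0.393 and Stk16 at 0.581. Csnk1g2 had another promoter at 1.26, Hipk2 another at 1.08, and Dyrk1a others at 0.730 and 1.22. Promoters of Csnka2ip, of Dyrk4 and, for contrast, of the CpG-rich Csnk2a2 are shown with CG in capitals. They hold 1, 5 and 30 CpG dinucleotides in 300 bases. On GRCm38.p6 they lie at chr16:64602282-64602581, chr6:126921790-126922089 and chr8:95488771-95489070, each on the minus strand. These too were chosen after their values were seen.
Csnka2ip: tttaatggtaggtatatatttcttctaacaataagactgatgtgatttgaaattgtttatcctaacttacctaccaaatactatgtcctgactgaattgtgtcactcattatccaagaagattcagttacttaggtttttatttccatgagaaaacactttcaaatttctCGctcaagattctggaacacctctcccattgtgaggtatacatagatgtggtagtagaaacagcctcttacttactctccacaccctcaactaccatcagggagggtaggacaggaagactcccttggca
Dyrk4: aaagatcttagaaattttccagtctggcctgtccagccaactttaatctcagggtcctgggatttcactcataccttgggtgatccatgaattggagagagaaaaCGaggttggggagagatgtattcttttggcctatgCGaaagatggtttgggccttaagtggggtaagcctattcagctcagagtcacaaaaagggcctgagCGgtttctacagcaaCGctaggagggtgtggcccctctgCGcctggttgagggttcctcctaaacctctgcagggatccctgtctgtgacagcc
Csnk2a2: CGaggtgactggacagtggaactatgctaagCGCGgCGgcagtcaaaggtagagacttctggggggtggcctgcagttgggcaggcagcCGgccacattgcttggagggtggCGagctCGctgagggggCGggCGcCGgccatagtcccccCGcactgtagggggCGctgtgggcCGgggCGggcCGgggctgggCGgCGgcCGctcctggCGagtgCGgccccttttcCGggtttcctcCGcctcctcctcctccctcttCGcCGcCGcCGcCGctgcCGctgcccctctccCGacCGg

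**Figure D5:**
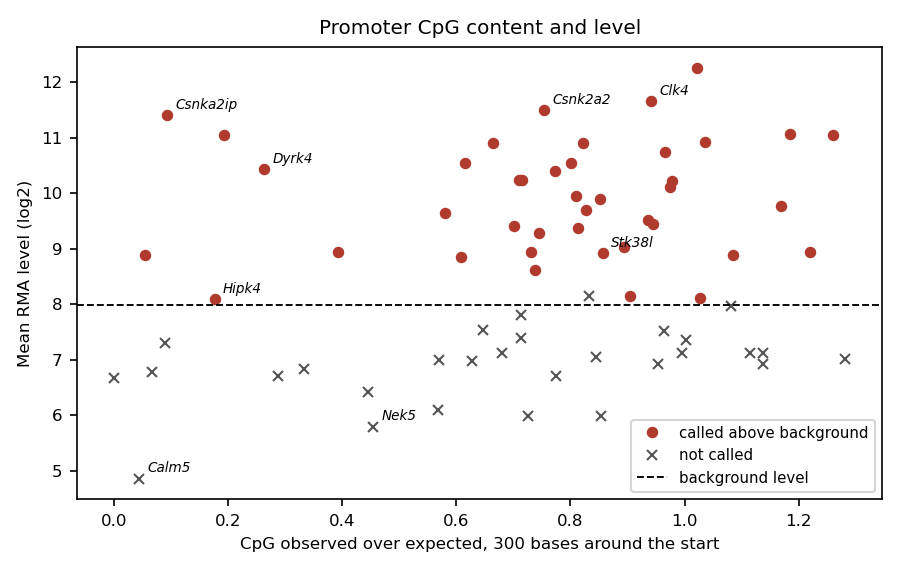
Mean RMA level (log2, vertical axis) of member genes against the ratio of observed to expected CpG in the 300 bases around each annotated start (horizontal axis), 70 promoters of 57 genes, with the background level of 7.98 as a dashed line. Called members (filled circles) and members not called (crosses) span nearly the whole range of CpG content, and Csnka2ip at 11.41 and Dyrk4 at 10.42 are called with ratios of 0.094 and 0.263.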

How the data were processed

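The authors deposited log2 probe set levels for 3 arrays (GeneChip Mouse Gene 1.0 ST), 1 column per sample, made by RMA in Affymetrix Power Tools with mm9-based annotation, per the series' design text. No software version is given in the sources. The column medians were 7.17, 7.20 and 7.17. Scanner files were not part of the work, so the number of arrays limits the precision and there were no detection calls. The platform annotation named 1 gene for 21789 of 35556 probe sets, and symbols were updated by Entrez identifier to the table of GRCm38.p6, which matched 21698 of them. Probe sets of the same gene were combined by their median. The background genes were 211 Vmn1r, Vmn2r and Krtap genes, 4 receptor pseudogenes included. Calls came from limma 3.58.1 (R 4.3.3), fitting only an intercept to all 19938 genes and moderating the variances by empirical Bayes. The estimated prior had 0.267 degrees of freedom, with 9173 genes tied on all arrays. With centred columns, where 0 genes were tied, it had 1.82. For tied genes the test asks only whether the level exceeds 7.98. Tied genes made up 17 of the 44 members called. The test was tried on simulated data. The value of every array is given for genes with a mean of 10 or more, the 10 lowest, the 5 nearest the background level on each side, the 5 with the largest SD, those whose probe sets differed by more than 1, and for 15 members known from testis. It is also given for Camk2b, Stk24 and Stk38l, chosen after their values were seen. Partner genes were named where they were called with a mean of 10 or more or were not called. Other genes were named to account for all members or, in the promoter section, after their values were seen. The members and lists were chosen with earlier results of these data known. Promoter sequences are from RefSeq (GRCm38.p6). Alternatives changed the background level, the call rule, the probe sets, the centring, the filter and the arrays used.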

Additional observations from a re-analysis of the deposited data

How the results depend on the processing

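The 44 called members became 30 at the 99th percentile background level of 9.16, 53 with olfactory receptor genes as background, 47 without the 4 receptor pseudogenes (chosen after seeing the data), 45 when each array had to exceed the level and 39 with shared probe sets included. The count was 44 with the highest probe set, with centred columns and with a filter on low genes, and ranged from 40 to 43 without 1 replicate. The median level of members stayed between 8.85 and 8.89 in these settings, and the count of 28 called partner genes between 19 and 37. Distances from the background level changed sign for some members near it. At the 99th percentile level they were -0.92 for Camk2g, -0.44 for Csnk1g3, -0.23 for Dyrk1a, -1.06 for Dyrk2, -1.07 for Hipk4, -1.01 for Nek7, -1.01 for Stk10 and -0.13 for Stk38. With shared probe sets they were -0.13 for Camk2g, -0.26 for Dyrk2, -0.28 for Hipk4, -0.22 for Nek7, -0.22 for Stk10 and 3.46 for Camkv. With olfactory receptor genes as background they were 0.34 for Camk2n2, 0.79 for Camkk2, 0.20 for Camkv, 0.36 for Stk26 and 0.62 for Stk40, and without the receptor pseudogenes 0.33 for Camkk2 and 0.16 for Stk40. Camkk2 ranged from -0.0096 to 0.029 without 1 replicate. The level itself differs between these settings, by construction. Nek7, not called in the main setting, was called with olfactory receptor genes, without the pseudogenes and by the rule on each array. Stk4 lost its call at the 99th percentile level (adjusted p = 0.226 by limma's test) and Csnk1g3 with shared probe sets (adjusted p = 0.0506 by limma's test). No paired analysis was possible because the series has 1 group. The number of arrays, 3, limits the precision, and no probe's signal over its own background was used.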
